A study of Mus musculus with 4 samples.

Results

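The 10 genes described here encode the sensors, adaptor, caspases, pore protein and regulators of the inflammasome in monocytes and macrophages of the mouse colon. They are Nlrp3, Nlrp1b, Nlrc4, Aim2, Pycard, Casp1, Casp4, Gsdmd, Nek7 and Txnip, taken by name as 10 of the 28692 genes counted, and every one of them had at least 1 unique molecular identifier (UMI, a tag that marks 1 captured transcript). Cells came from male C57/Bl6N mice, 2 of which had been gavaged with 12 µg of diesel exhaust particles (DEP) in 200 µL of phosphate-buffered saline (PBS) on 5 days of each week over about 6 months. The 2 control mice had received PBS alone on the same schedule, and the mice are called DEP 11, DEP 13, PBS 2 and PBS 3. Lamina propria cells, from the tissue layer under the gut epithelium, had been sorted on CD11b together with Ly6C or CD64, and each mouse gave 1 library of 3' single-cell RNA sequencing. Of 6954 barcodes, 4771 had at least 1000 UMIs, 4623 of these passed the other cell filters, and 4543 were analysed after 80 plasma cells were left out.

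Inflammasomes are protein complexes that assemble in the cytosol of myeloid cells when a sensor meets a danger signal or a microbial product. The sensor recruits the adaptor encoded by Pycard (ASC), which gathers and activates caspase-1, and the caspase then cuts the precursors of interleukin-1β and interleukin-18 and the pore protein gasdermin D. Expression of the sensor and of pro-interleukin-1β is raised by a separate priming signal, while assembly takes place at the protein level and is not measured by transcripts. Colon macrophages are replenished from blood monocytes, which carry Ly6c2 and lose it as they mature into resident macrophages that carry the complement gene C1qa.

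Members were followed along this axis. Each cell was thinned to 1000 UMIs, and a cell with at least 1 Ly6c2 UMI was called Ly6c2+ and a cell with at least 2 C1qa UMIs was called C1qa+. This gave 400 Ly6c2+ C1qa- cells, 263 Ly6c2+ C1qa+ cells, 2740 Ly6c2- C1qa+ cells and 1140 Ly6c2- C1qa- cells, which are levels of 2 genes and not cell types. Of the analysed cells, 475 had exactly 1 thinned Ly6c2 UMI and 1339 had 1 or 2 thinned C1qa UMIs, so many cells lay next to a class border. The sum over 10 monocyte markers, Ly6c2 among them, was 7980 to 9333 CPM over the mice (UMIs of a gene scaled to the same total in every sum) in Ly6c2+ C1qa- cells and 863 to 1388 CPM in Ly6c2- C1qa+ cells. Ly6c2, which the rule used, made up 864 to 1249 and 32.2 to 87.2 CPM of these sums. The monocyte sum was 3673 to 4946 CPM in Ly6c2- C1qa- cells, higher than the 2969 to 3993 CPM of Ly6c2+ C1qa+ cells in every mouse. A sum over 10 resident macrophage markers, C1qa among them, was 10881 to 19013 CPM in Ly6c2+ C1qa- cells. In Ly6c2- C1qa+ cells it was 49733 to 57112 CPM. The share of Ly6c2+ C1qa- cells was 10.3% (DEP 11), 6.77% (DEP 13), 8.41% (PBS 2) and 8.84% (PBS 3). DEP mice minus PBS mice came to −0.0985 percentage points (exact two-sided permutation p = 1, where the smallest possible p is 0.333), and the sort can set such shares. The sign changed under other settings, with 0.180 points from 2000 UMIs, 0.717 with another thinning seed, 0.874 with C1qa+ from 1 thinned UMI and 1.94 with classes from full-depth levels. In the last 2 of these the groups did not overlap (exact permutation p = 0.333 each). Nor did they for the Ly6c2+ C1qa+ share, at 5.23% (DEP 11), 4.25% (DEP 13), 7.52% (PBS 2) and 5.45% (PBS 3), a difference of −1.75 points (exact permutation p = 0.333), or for the Ly6c2- C1qa+ share with full-depth classes (−7.78 points, exact permutation p = 0.333).

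All libraries were sequenced together. They held 4489342 to 10293703 UMIs. DEP 13 had the fewest UMIs, with 635 of the 4543 cells, while the median per analysed cell ran from 5357 (DEP 11) to 7226.5 UMIs (PBS 2) with DEP 13 at 5862. Sums per mouse and class held 185689 to 6922969 UMIs, and 39 barcode names occurred in 2 libraries while no barcodes had identical counts. The summed neutrophil list lay between 37.0 and 44.4 CPM, and the eosinophil and mast cell list between 3.17 and 5.67 CPM. The B cell list lay between 283 and 324 CPM, and these lists overlapped between DEP and PBS mice. The dendritic cell list was at 78.5 (DEP 11), 54.3 (DEP 13), 51.5 (PBS 2) and 47.1 CPM (PBS 3), higher in both DEP mice. So was the T cell list, at 106, 107, 92.7 and 101 CPM in the same order. The part of these 2 lists in the exposure comparisons was not tested. Plasma cell transcripts came to 4385, 6870, 3812 and 9787 CPM, and colon epithelial ones to 35.6, 58.9, 25.5 and 174 CPM, in DEP 11, DEP 13, PBS 2 and PBS 3. All 13 plasma cell markers had a UMI in every mouse, as did 8 to 10 of the 10 epithelial ones, and both sums were highest in PBS 3. A cluster of 58 T and B cells remained among the analysed cells, and results without it are given where they differ. The defining sort markers were present, with Fcgr1, the gene of CD64, at 179.8 to 266 CPM and Itgam, the gene of CD11b, at 87.9 to 114 CPM over the mice.

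The promoters of Casp1, Casp4 and Txnip are shown because these 3 members were called different between the 2 main classes below. Each sequence is the RefSeq stretch (GRCm38.p6, plus strand, 5' to 3') of 250 bases that ends at the base before the start site, and capitals mark the motif matches described after it.
Casp1, chr9:5298267-5298516: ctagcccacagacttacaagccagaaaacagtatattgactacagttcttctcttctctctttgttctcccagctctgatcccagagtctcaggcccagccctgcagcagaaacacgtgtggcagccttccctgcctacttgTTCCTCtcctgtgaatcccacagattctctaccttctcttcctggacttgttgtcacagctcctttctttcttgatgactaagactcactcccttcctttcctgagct
Casp4, chr9:5308599-5308848: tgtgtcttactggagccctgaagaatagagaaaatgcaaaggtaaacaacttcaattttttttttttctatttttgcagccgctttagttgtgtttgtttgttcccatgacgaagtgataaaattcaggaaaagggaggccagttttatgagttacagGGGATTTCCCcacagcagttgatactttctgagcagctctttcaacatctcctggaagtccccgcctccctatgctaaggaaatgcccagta
Txnip, chr3:96557707-96557956: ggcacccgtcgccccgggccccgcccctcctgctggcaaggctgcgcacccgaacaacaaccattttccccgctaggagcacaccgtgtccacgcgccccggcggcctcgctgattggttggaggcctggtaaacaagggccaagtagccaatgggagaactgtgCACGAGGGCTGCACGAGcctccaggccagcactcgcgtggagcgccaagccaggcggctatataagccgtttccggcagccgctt

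In the Txnip sequence the capitals mark a pair of E boxes (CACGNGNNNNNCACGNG), the form of element through which the glucose-sensing factors MondoA and ChREBP are known to act, beginning 85 bases before the start. In all, 15 of 32851 RefSeq promoter windows of 300 bases, from 250 before to 50 after a start, held this pattern on either strand (0.0457%). The Casp4 capitals mark a match to the NF-kB consensus beginning 92 bases before the RefSeq start, which differs from the Ensembl start given below, a pattern found in 322 windows (0.980%). The Casp1 capitals mark a PU.1 core (GAGGAA, here on the minus strand) 108 bases before the start, which 7639 windows held (23.3%). These 3 patterns do not overlap in the sequences shown. PU.1 cores also lay in windows of Aim2, Pycard, Nlrp3 and Nlrp1b, Gsdmd was not searched, and a match of letters is a description of the sequence only.

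Over all analysed cells the 4 sensors were counted sparsely. Nlrp3 (ENSMUSG00000032691, mm10 chromosome 11, 59541568 to 59566956, plus strand), which responds to potassium efflux, crystals and particles, had 37.9 (DEP 11), 27.0 (DEP 13), 32.2 (PBS 2) and 20.7 CPM (PBS 3), from 866 UMIs in all. Aim2 (ENSMUSG00000037860, mm10 chromosome 1, 173350879 to 173466040, plus strand), the sensor of cytosolic DNA, had 19.8 (DEP 11), 23.5 (DEP 13), 21.4 (PBS 2) and 26.4 CPM (PBS 3). Nlrc4 (ENSMUSG00000039193, mm10 chromosome 17, 74425438 to 74459142, minus strand), which assembles with NAIP proteins that bind flagellin, had 8.28 (DEP 11), 7.83 (DEP 13), 6.96 (PBS 2) and 8.32 CPM (PBS 3). Nlrp1b (ENSMUSG00000070390, mm10 chromosome 11, 71153102 to 71230733, minus strand), the last of the 4 sensors, had 2.47 (DEP 11), 2.78 (DEP 13), 3.28 (PBS 2) and 4.72 CPM (PBS 3). Nlrp1b rested on 102 UMIs and Nlrc4 on 230, so neither passed the filter of a UMI in at least 5% of cells for most tests. Nlrp1b is also close in sequence to its neighbour Nlrp1a, and reads that fit both may have been lost or misplaced in counting.

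Downstream of the sensors, Pycard (ENSMUSG00000030793, mm10 chromosome 7, 127989708 to 127993867, minus strand) had 279.8 (DEP 11), 286 (DEP 13), 325 (PBS 2) and 347 CPM (PBS 3). Casp1 (ENSMUSG00000025888, mm10 chromosome 9, 5298517 to 5307265, plus strand) had 62.2 (DEP 11), 78.1 (DEP 13), 69.0 (PBS 2) and 78.3 CPM (PBS 3). Casp4 (ENSMUSG00000033538, mm10 chromosome 9, 5308828 to 5336783, plus strand), the mouse gene of caspase-11, which binds cytosolic lipopolysaccharide, lies next to Casp1 on the same strand and had 36.3 (DEP 11), 44.7 (DEP 13), 47.7 (PBS 2) and 37.6 CPM (PBS 3). Gsdmd (ENSMUSG00000022575, mm10 chromosome 15, 75862327 to 75867408, plus strand), the substrate that both caspases cut to open pores in the membrane, had 70.5 (DEP 11), 48.3 (DEP 13), 76.0 (PBS 2) and 61.8 CPM (PBS 3). DEP 13 lay lowest for Gsdmd and DEP 11 lowest for the other 3 of these genes.

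Of the 2 regulators, Nek7 (ENSMUSG00000026393, mm10 chromosome 1, 138482875 to 138620141, minus strand), a kinase that binds NLRP3 and is needed for its assembly, had 28.3 (DEP 11), 27.8 (DEP 13), 25.6 (PBS 2) and 25.5 CPM (PBS 3). Txnip (ENSMUSG00000038393, mm10 chromosome 3, 96557957 to 96561883, plus strand), which binds and inhibits thioredoxin and has been described as a partner of NLRP3 under oxidative stress, had 111 (DEP 11), 144 (DEP 13), 173 (PBS 2) and 237 CPM (PBS 3). An antisense gene, Gm15441, overlaps Txnip but held 84 UMIs against 5504 of Txnip over all barcodes, and Cadm3, opposite to Aim2, held 6. Txnip spread most over the mice among the 10 members, by the ratio of the highest to the lowest mouse, with both DEP mice under both PBS mice.

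A share of cells with a UMI depends on depth, and after thinning every cell to 3000 UMIs (591 shallower cells left out) a UMI was found in 58.9% of cells for Pycard, 36.8% for Txnip, 19.9% for Casp1, 17.7% for Gsdmd and 11.9% for Casp4. It was found in 7.77% for Nlrp3, 7.69% for Nek7, 6.60% for Aim2, 2.35% for Nlrc4 and 0.886% for Nlrp1b. The unthinned shares, at a median of 5893 UMIs, ran from 2.14% for Nlrp1b to 77.0% for Pycard. The plasma cells that were left out, at a median of 20942 UMIs before thinning, gave 1.35% for Nlrp3 and for Aim2, 12.2% for Casp1, 5.41% for Casp4 and 8.11% for Gsdmd in 74 thinned cells, all under the analysed cells. For Nek7 they gave 9.46%, for Txnip 27.0% and for Pycard 44.6%. The Nek7 share in the analysed cells was thus not above that in the plasma cells. Free RNA can give such UMIs, and its part in the shares of either kind of cell was not tested. For Nlrc4 and Nlrp1b a UMI was left in 0 of the 74 thinned plasma cells, which allows up to 4.05% of cells with a UMI at this thinned depth. In the 80 unthinned plasma cells Nlrc4 had 6 UMIs and a share of 7.50%, and Nlrp1b had 1 UMI and 1.25%. A UMI of Nlrp3, Pycard and Casp1 in the same thinned cell was found in 0.750% to 1.45% of cells per mouse.

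**Figure D1:**
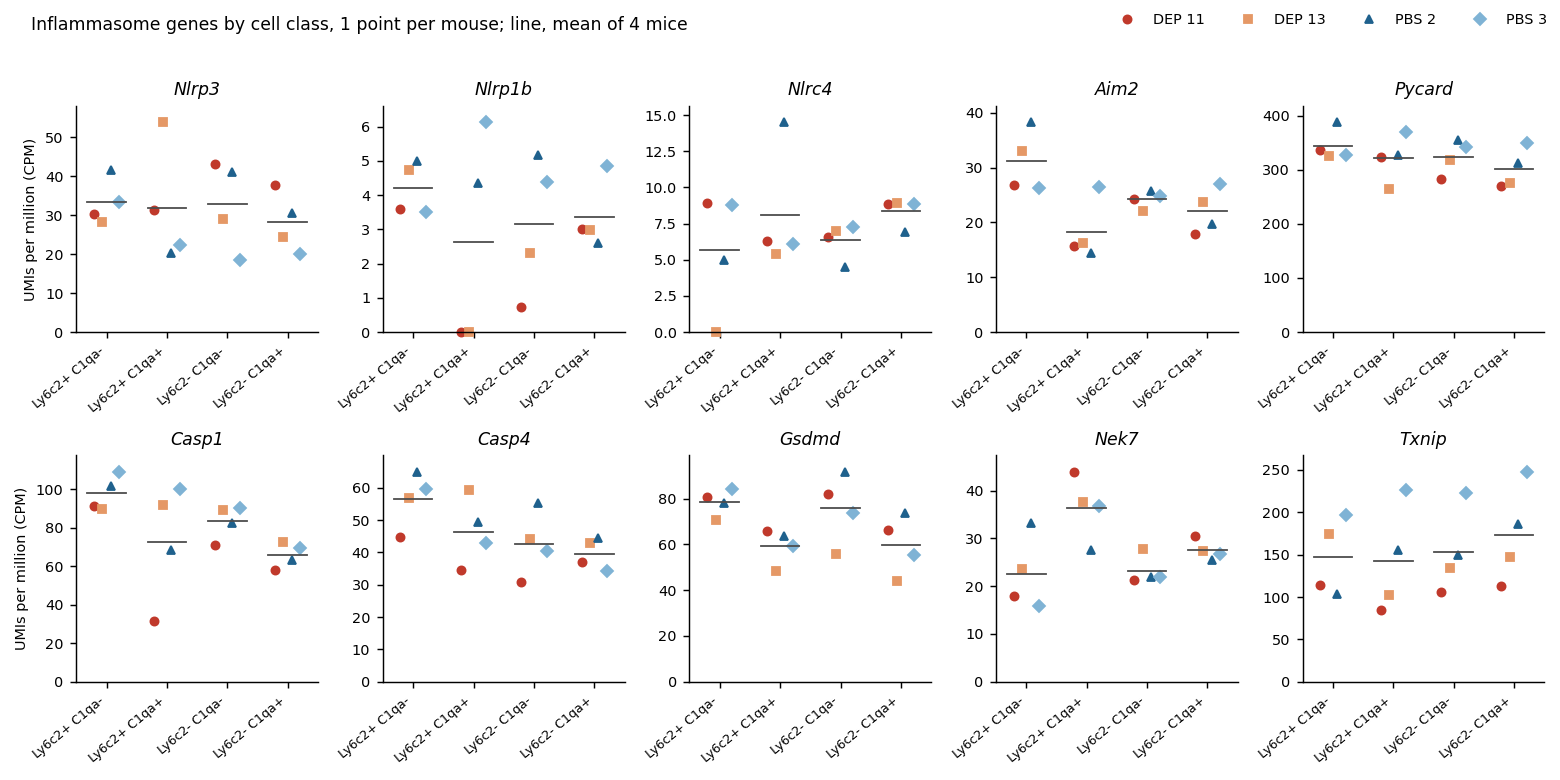
Level (CPM, linear axes from 0) of the 10 members in 4 cell classes set by Ly6c2 and C1qa, with 1 point per mouse (DEP 11, DEP 13, PBS 2, PBS 3) and a line at the mean of 4 mice. Casp1 and Casp4 were higher in Ly6c2+ C1qa- than in Ly6c2- C1qa+ cells in 4 of 4 mice, and Txnip was higher in PBS 3 than in the other mice in every class.

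The comparison of Ly6c2+ C1qa- with Ly6c2- C1qa+ cells asked which members change as monocytes mature, and 2 caspase genes were called higher in the Ly6c2+ C1qa- cells, in 4 of 4 mice each, while Txnip was called lower but lay lower in the 2 PBS mice only. These were 2 and 1 of the 8 members tested, against 16.3% of all genes called higher and 14.3% called lower. Casp1 had 91.2 (DEP 11), 89.7 (DEP 13), 101 (PBS 2) and 109 CPM (PBS 3) in the Ly6c2+ C1qa- sums. In the Ly6c2- C1qa+ sums it had 58.2, 72.6, 63.3 and 69.2 CPM in the same order. All 4 mice were higher in the Ly6c2+ C1qa- cells and the classes did not overlap (log2 fold change 0.57, SE 0.13, adjusted p = 0.000583, edgeR quasi-likelihood test with the mouse as a block, as for every value of this contrast). Casp4 had 44.7 (DEP 11), 56.7 (DEP 13), 64.8 (PBS 2) and 59.6 CPM (PBS 3), against 37.1, 43.0, 44.3 and 34.1 CPM in Ly6c2- C1qa+ cells. It was likewise higher in 4 of 4 mice (log2 fold change 0.49, SE 0.15, adjusted p = 0.0128). The neutrophil list was also higher in Ly6c2+ C1qa- cells, at 80.3 to 98.0 against 27.5 to 35.5 CPM over the mice. The dendritic cell list was higher too, at 44.9 to 68.4 against 22.2 to 47.4 CPM. The part of these lists in the contrast was not tested.

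The calls of Casp1 and Casp4 depended on where the classes were divided. With C1qa+ taken from 1 thinned UMI the Casp1 difference was 0.28 on the log2 scale (adjusted p = 0.235) and that of Casp4 was 0.29 (adjusted p = 0.408). Casp4 also missed the threshold without the mouse block (adjusted p = 0.0793), without PBS 2 (0.0606) or without PBS 3 (0.144), at log2 fold changes of 0.47, 0.49 and 0.38. It missed the threshold as well with no filter on low genes (adjusted p = 0.0728), with classes from full-depth levels (0.0760) and with another thinning seed (0.0521).

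Txnip went the other way, but not in every mouse. It had 114 (DEP 11), 175 (DEP 13), 103 (PBS 2) and 196 CPM (PBS 3) in Ly6c2+ C1qa- cells and 113, 147, 186 and 247 CPM in Ly6c2- C1qa+ cells. The Ly6c2+ C1qa- level was lower in both PBS mice, with a log2 ratio of −0.86 in PBS 2 and −0.33 in PBS 3, and not in the DEP mice, with 0.24 in DEP 13 and 0.014 in DEP 11. The fit over the 4 mice gave a lower level (log2 fold change −0.36, SE 0.11, adjusted p = 0.0114). Without the mouse block the call was lost (−0.32, adjusted p = 0.498), as it was without PBS 2 (−0.15, 0.381), without PBS 3 (−0.34, 0.0903) or with C1qa+ from 1 thinned UMI (−0.21, 0.276). Over all barcodes of at least 1000 UMIs the adjusted p was 0.0513.

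The other members did not pass. Gsdmd had 80.5, 70.8, 78.1 and 84.2 CPM in Ly6c2+ C1qa- cells and 66.2, 44.1, 73.5 and 55.6 CPM in Ly6c2- C1qa+ cells, higher in 4 of 4 mice and close to the threshold (log2 fold change 0.31, SE 0.12, adjusted p = 0.0546). It passed with the T and B cell cluster left out (adjusted p = 0.0443), without PBS 2 (0.0308), over all barcodes (0.0341), with full-depth classes (0.00774) and with another thinning seed (0.00238). Aim2 had 26.8, 33.1, 38.2 and 26.3 against 17.9, 23.7, 19.6 and 27.0 CPM, higher in 3 of 4 mice (log2 fold change 0.46, SE 0.21, adjusted p = 0.0941). Pycard, with 336, 326, 387 and 326 against 269, 275, 313 and 348 CPM, differed by a log2 fold change of 0.15 (SE 0.08, adjusted p = 0.148). Without PBS 3 both Aim2 (adjusted p = 0.0369) and Pycard (0.0330) passed, as they did with full-depth classes (0.0117 and 0.0447). Nlrp3, with 30.4, 28.3, 41.5 and 33.3 against 37.7, 24.5, 30.5 and 20.1 CPM, was higher in 3 of 4 mice and overlapped between the classes (log2 fold change 0.23, SE 0.22, adjusted p = 0.482). Nek7 was lower in 3 of 4 mice, at 17.9, 23.6, 33.2 and 15.8 against 30.6, 27.4, 25.6 and 26.8 CPM (log2 fold change −0.32, SE 0.22, adjusted p = 0.316). Nlrc4 had 8.94, 0, 4.98 and 8.77 against 8.84, 8.89, 6.93 and 8.83 CPM, where the 0 in DEP 13 allows up to 14.2 CPM, and Nlrp1b had 3.51 to 4.98 CPM in the first class and up to 4.85 CPM in the second. Neither was tested.

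The 2 other classes lay around these levels. In Ly6c2+ C1qa+ cells, which carry both marks and number 27 to 93 per mouse, Casp1 had 31.3 (DEP 11), 91.6 (DEP 13), 68.1 (PBS 2) and 99.9 CPM (PBS 3), the widest spread of any class, and Nlrp3 had 31.3, 53.9, 20.3 and 22.4 CPM. Nek7 had 43.9, 37.7, 27.5 and 36.7 CPM there, above its Ly6c2+ C1qa- level in 3 of 4 mice. Nlrp1b was at 0 in both DEP mice, which allows up to 9.40 CPM in DEP 11 and 16.2 CPM in DEP 13. In Ly6c2- C1qa- cells Casp1 had 71.1, 89.4, 82.5 and 90.3 CPM, between the 2 main classes in 4 of 4 mice, and Gsdmd had 82.1, 55.7, 91.5 and 73.8 CPM. Pycard had 323, 264, 328 and 369 CPM in the first of these classes and 282, 317, 356 and 342 CPM in the second, Casp4 34.5, 59.2, 49.3 and 42.8 and 30.8, 44.1, 55.4 and 40.3 CPM, and Aim2 15.7, 16.2, 14.5 and 26.5 and 24.2, 22.1, 25.8 and 24.8 CPM.

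Of all 6604 genes tested, 30.6% were called in either direction. The median log2 fold change was 0.27 over the members and −0.019 over all genes. A share of 3 in 8 members is close to this background.

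Cells with no thinned Ly6c2 UMI were also ordered by C1qa alone, in steps of 0, 1, 2 to 4 and 5 or more thinned UMIs. Casp1 had 69.1, 85.3, 92.2 and 87.4 CPM at 0 C1qa UMIs and 56.1, 76.8, 59.6 and 69.6 CPM at 5 or more, in DEP 11, DEP 13, PBS 2 and PBS 3. Gsdmd had 78.7, 60.9, 103 and 67.3 CPM at the lowest step and 60.7, 38.1, 68.6 and 54.5 CPM at the highest. Both were lower at the highest than at the lowest step in 4 of 4 mice. Casp4 was lower at the highest step in the PBS mice only, with 27.6, 36.5, 46.9 and 48.4 CPM and 36.6, 45.3, 41.5 and 35.4 CPM. Txnip at the 2 ends had 119, 144, 150.0 and 196 and 112, 159, 195 and 252 CPM, higher at the upper end in 3 of 4 mice. For Nlrp3 the steps overlapped, at 18.9 to 51.1 and 19.0 to 36.9 CPM. These steps are given as a description, with no test.

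**Figure D2:**
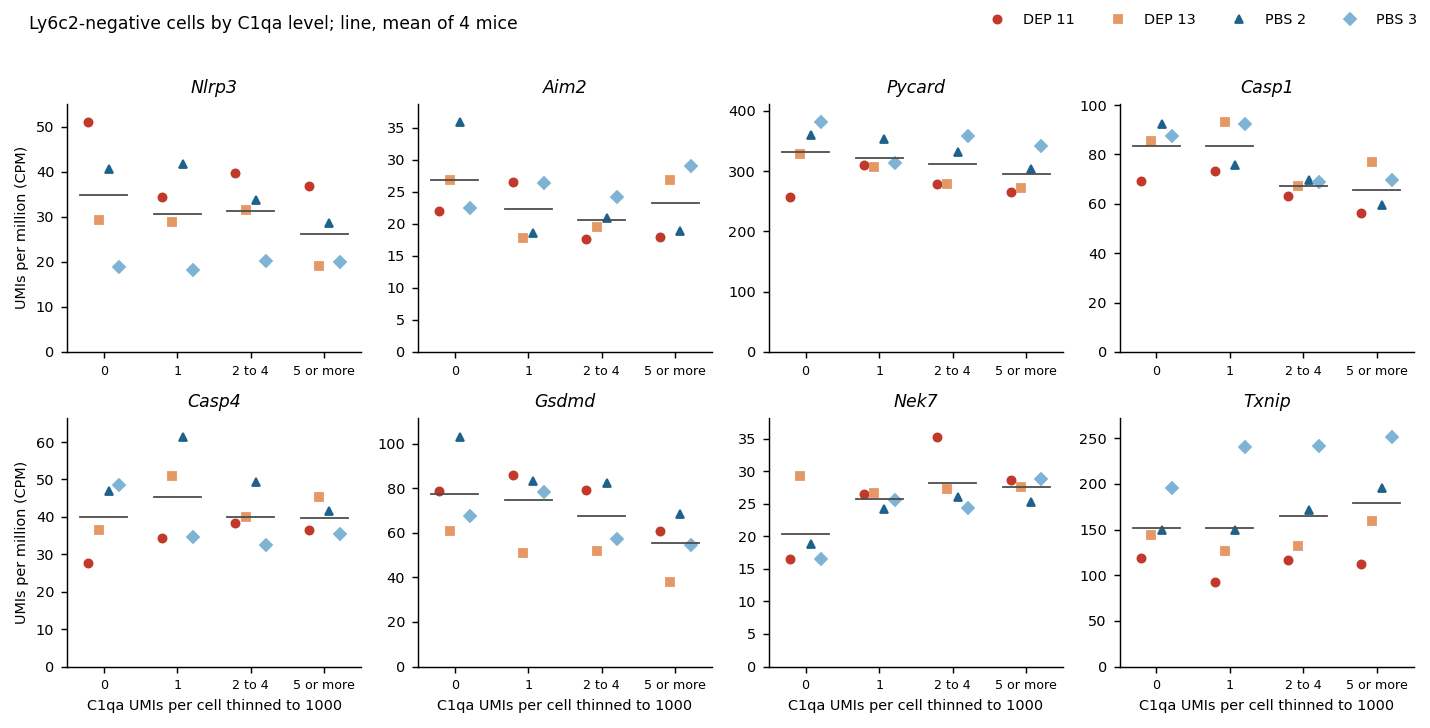
Level (CPM, linear axes from 0) of 8 members in cells without a thinned Ly6c2 UMI, by number of C1qa UMIs per cell thinned to 1000, with 1 point per mouse and a line at the mean of 4 mice. Casp1 was 69.1 to 92.2 CPM at 0 C1qa UMIs and 56.1 to 76.8 CPM at 5 or more, and the DEP 11 and PBS 3 points of Txnip lay farthest apart at every step.

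Genes around the members in the pathway, 46 in the list and 26 of them tested, differed between the classes in both directions. Of these 26, 8 were called higher in Ly6c2+ C1qa- cells and 7 lower, a larger share than the 30.6% of all genes, for which no test was made. Among other sensors, Zbp1, a sensor of Z-form nucleic acids, had 159, 99.2, 174 and 116 CPM in Ly6c2+ C1qa- and 42.9, 36.3, 48.1 and 37.4 CPM in Ly6c2- C1qa+ cells (log2 fold change 1.72, SE 0.13, adjusted p = 3.48e-13). Naip2, whose protein binds the rod subunit of bacterial secretion systems and then NLRC4, was called as well (log2 fold change 0.85, SE 0.28, adjusted p = 0.0197), although in DEP 13 it went the other way with 4.72 against 14.8 CPM. Naip genes are near-identical copies, so their counts are uncertain.

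Inhibitors of the pathway split. Tmem176a and Tmem176b, neighbouring genes of cation channels of which the second has been described as restraining NLRP3, were both lower in Ly6c2+ C1qa- cells. Tmem176a had 409.6, 435, 497 and 498 against 1188, 1036, 1195 and 1154 CPM (log2 fold change −1.36, SE 0.09, adjusted p = 3.25e-15) and Tmem176b had 796, 666, 748 and 824 against 1561, 1499, 1499 and 1484 CPM (log2 fold change −1.02, SE 0.08, adjusted p = 2.07e-13). Trim30a, described as a restraint on NLRP3 in mouse cells, was higher (log2 fold change 0.78, SE 0.12, adjusted p = 3.38e-06), and so was Txn1, the thioredoxin that TXNIP binds, at 431, 449, 447 and 459.6 against 328, 304, 322 and 352 CPM (log2 fold change 0.40, SE 0.06, adjusted p = 4.65e-06). Txn1 was higher in 4 of 4 mice.

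Of the cytokine genes, Il18 was higher in Ly6c2+ C1qa- cells (log2 fold change 0.78, SE 0.17, adjusted p = 0.000379) and Il18bp, its soluble inhibitor, was lower (log2 fold change −1.35, SE 0.39, adjusted p = 0.00677). The Il18bp call rested on low counts, at 8.94, 0, 4.98 and 3.51 against 16.2, 11.9, 10.8 and 11.9 CPM. Il1r2, the decoy receptor of interleukin-1, was lower (log2 fold change −2.37, SE 0.28, adjusted p = 1.66e-08), with 0 to 19.7 CPM against 54.0 to 77.1 CPM. Il1b itself had 2982, 1625, 3738 and 1996 against 3515, 2562, 3399 and 2260 CPM and did not pass (log2 fold change −0.23, SE 0.09, adjusted p = 0.0533). Upstream, P2rx7, the ATP-gated channel that lets potassium out, was lower (log2 fold change −0.99, SE 0.23, adjusted p = 0.000904), and Irf2, a factor known to drive Gsdmd, was higher (log2 fold change 0.87, SE 0.11, adjusted p = 1.15e-07) while Irf8 was lower (log2 fold change −0.46, SE 0.07, adjusted p = 3.7e-06). Both factors differed in the same direction in 4 of 4 mice. Gbp2 and Pstpip1 were also called higher and Gbp3 lower, but in DEP 13 Gbp2 was at 14.2 against 44.8 CPM and Pstpip1 at 42.5 against 43.0 CPM.

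**Figure D3:**
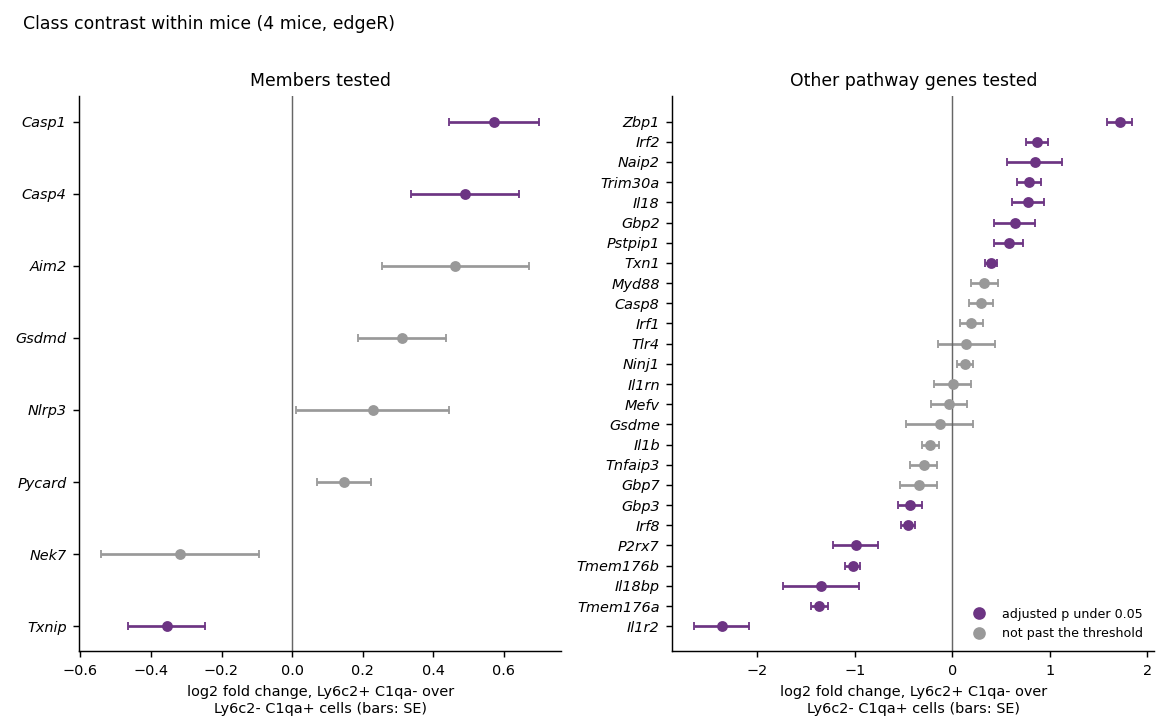
Log2 fold change (points) with its SE (bars) of Ly6c2+ C1qa- over Ly6c2- C1qa+ cells within 4 mice, for the 8 members tested and the 26 other pathway genes tested. Purple marks an adjusted p under 0.05 and grey the rest. Among the members Casp1, Casp4 and Txnip were called, and Il1r2 and Zbp1 marked the ends of the other pathway genes.

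Nlrp3 varied between groups of cells found by clustering. The clusters were formed from the same cells and genes, so their levels are given with no test and under their number and leading genes. Cluster 5 (163 cells), led by Retnla, Cxcl1 and Il1a, had 95.5 (DEP 11), 94.8 (DEP 13), 53.3 (PBS 2) and 33.6 CPM (PBS 3). Cluster 6 (431 cells), led by Saa3, Clec4e and Il1rn, had 66.6, 49.3, 61.5 and 61.1 CPM in the same order. At the low end, cluster 4 (539 cells), led by Stmn1, Pf4 and Ccl8, had 19.4, 8.67, 12.3 and 14.9 CPM, and cluster 7 (635 cells), led by Ccr2, Sirpb1b and Sirpb1c, had 22.7, 18.5, 7.02 and 17.1 CPM. Clusters 5 and 6 thus lay above clusters 4 and 7 in every mouse, while cluster 3 (695 cells), led by Ifitm6, Chil3 and Hp, was between them at 40.4, 45.9, 42.6 and 27.8 CPM.

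Il1b, the substrate gene, was at 8484, 5878, 6843 and 4733 CPM in cluster 6 and 4304, 7508, 4534 and 4186 CPM in cluster 5, against 1397, 1372, 1518 and 1391 CPM in cluster 4, 2201, 1964, 2302 and 2782 CPM in cluster 7 and 2815, 2443, 2570 and 1463 CPM in cluster 3. It is itself among the genes that mark cluster 6. Casp4 had 39.8, 63.2, 87.0 and 71.9 CPM in cluster 5 and 45.9, 71.2, 68.1 and 86.6 CPM in cluster 6, and Gsdmd had 90.3, 54.8, 92.3 and 138 CPM in cluster 6 and 89.6, 77.8, 109 and 87.4 CPM in cluster 3. Casp1 was at 97.1 to 116 CPM in cluster 3 and at 9.99 to 57.1 CPM in cluster 9 (184 cells), led by Ccl8, Pf4 and Folr2. Txnip was highest in cluster 9 in 3 mice and in cluster 5 in PBS 2, with 212, 369, 287 and 389 CPM against 159, 174, 413 and 293 CPM. Pycard, the adaptor, was at 206 to 316 CPM in cluster 5 and at 323 to 397 CPM in cluster 3. Cluster 5 held 16 to 66 cells per mouse, so its values rest on few cells, with 6 to 19 Nlrp3 UMIs per mouse.

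**Figure D4:**
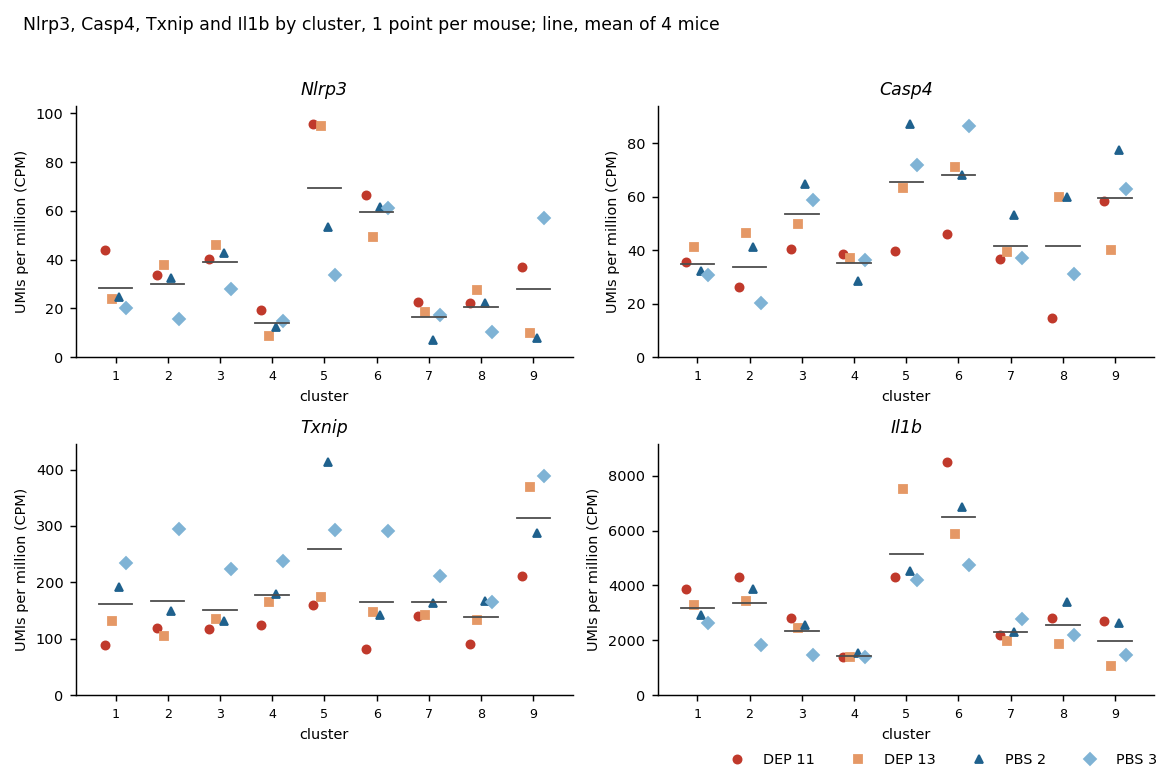
Level (CPM, linear axes from 0) of Nlrp3, Casp4, Txnip and Il1b in clusters 1 to 9 of the analysed cells, with 1 point per mouse and a line at the mean of 4 mice. Nlrp3 was 49.3 to 66.6 CPM in cluster 6 and 8.67 to 19.4 CPM in cluster 4, and Il1b was 4733 to 8484 and 1372 to 1518 CPM in the same clusters.

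The comparison of DEP with PBS mice asked whether exposure changed these genes in colon macrophages. No member passed the correction over all analysed cells, and none of the 6604 genes tested did (0% called by edgeR at a false discovery rate of 5%, with 4 called by DESeq2, none of them a member, and 172 under 0.05 before adjustment). Txnip had the smallest p of the members. At 111, 144, 173 and 237 CPM in DEP 11, DEP 13, PBS 2 and PBS 3, it averaged 127 ± 23.6 (SD, n = 2) under DEP and 205 ± 45.2 (SD, n = 2) under PBS. Both DEP mice lay under both PBS mice (log2 fold change −0.69, SE 0.22, edgeR adjusted p = 0.9998). The adjusted p was 0.0218 when every gene with a UMI was tested (−0.71) and 0.00958 without PBS 2 (−0.93), so the call turned on these settings. With each other mouse left out the log2 fold change was −0.49 (without DEP 11), −0.93 (without DEP 13) and −0.40 (without PBS 3), and none of these passed.

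Other values shared the group difference of Txnip or its highest mouse. A list of 17 immediate early and heat shock genes, which tissue dissociation is known to induce, summed to 12290, 10502, 15894 and 13682 CPM, also lower in both DEP mice, although within each group the mouse higher in the list was the one lower in Txnip. Hsp90aa1 of that list was the gene most like Txnip over the 16 sums of mouse and class (Pearson r = 0.886 of log2(CPM + 1)). The next was the immunoglobulin gene Iglc2 (r = 0.835), and the plasma cell and epithelial lists given above were highest in PBS 3, as Txnip was. In PBS 2, however, both lists were at their lowest while Txnip was above both DEP mice. Txnip in the plasma cells was 93.8, 61.0, 124 and 174 CPM, and in barcodes under 500 UMIs it was 109.9, 113, 181 and 161 CPM, where both DEP mice again lay under both PBS mice. The part of these signals in the Txnip difference was not tested.

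Nlrp3 had 37.9, 27.0, 32.2 and 20.7 CPM and its groups overlapped (32.5 ± 7.70 against 26.4 ± 8.11 CPM, log2 fold change 0.31, SE 0.23, adjusted p = 0.9998). Its log2 fold change ran from 0.0668 without DEP 11 to 0.63 without PBS 2. Pycard did not overlap, at 279.8, 286, 325 and 347 CPM, but the difference was small (−0.25, SE 0.16, adjusted p = 0.9998). Nek7 did not overlap either, at 28.3, 27.8, 25.6 and 25.5 CPM (0.14, SE 0.18). Casp1 (−0.08, SE 0.18), Casp4 (−0.08, SE 0.19), Gsdmd (−0.21, SE 0.19) and Aim2 (−0.16, SE 0.22) overlapped between the groups. Groups did not overlap for 3 of the 8 members tested, against 27.0% of all genes tested. In sums over many cells, fewer cells of a kind and less RNA per cell cannot be told apart.

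Within Ly6c2- C1qa+ cells the Txnip difference was of similar size, with 113 (DEP 11), 147 (DEP 13), 186 (PBS 2) and 247 CPM (PBS 3) (−0.74, SE 0.21, edgeR adjusted p = 0.697). It passed when every gene was tested (adjusted p = 0.0132). The dissociation list in these cells summed to 12166, 10116, 15212 and 13453 CPM. Nlrp3 (0.32, SE 0.25), Pycard (−0.28, SE 0.17) and Nlrc4 (0.17, SE 0.29) did not pass, nor did the other members. No gene of 6968 was called (0% by edgeR, 6 by DESeq2, 237 under 0.05 before adjustment). Groups did not overlap for 4 of 9 members tested (Txnip, Pycard, Nek7 and Nlrc4), against 29.2% of genes.

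Within Ly6c2+ C1qa- cells Txnip overlapped between the groups, at 114, 175, 103 and 196 CPM (−0.12, SE 0.33, adjusted p = 0.9993). With another thinning seed, which puts other cells into the class, the difference was −0.70, close to that in Ly6c2- C1qa+ cells. Nlrp3 in these cells lay lower in the DEP mice, at 30.4, 28.3, 41.5 and 33.3 CPM (−0.34, SE 0.40), as did Casp4, at 44.7, 56.7, 64.8 and 59.6 CPM (−0.36, SE 0.33), and Casp1 (−0.22, SE 0.27). Groups did not overlap for 3 of 8 members, these ones, against 30.6% of genes, and with another thinning seed the Nlrp3 difference changed sign (0.39). In Ly6c2+ C1qa+ cells, which were not tested, Nlrp3 lay the other way without overlap (31.3, 53.9, 20.3 and 22.4 CPM). Txnip was lower in both DEP mice than in both PBS mice there, at 84.6, 102, 155 and 226 CPM. The same held for Txnip in Ly6c2- C1qa- cells, also not tested, at 106, 135, 149 and 222 CPM. The Nlrp3 values of the Ly6c2+ C1qa- cells rested on 67 UMIs in all, 6 of them in DEP 13. In these cells the dissociation list summed to 12950, 12350, 17532 and 13655 CPM, lower in both DEP mice, and the T cell list to 125, 175, 28.2 and 59.6 CPM, higher in both, with a UMI for 8 to 12 of its 15 genes. The resident macrophage list summed to 14326, 10881, 19013 and 14416 CPM, also lower in both DEP mice. Without the T and B cell cluster the differences were −0.32 for Nlrp3, −0.32 for Casp4 and −0.19 for Casp1. The part of the dissociation and resident macrophage genes was not tested. No gene of 5711 passed (0% by edgeR, 0 by DESeq2, 188 under 0.05 before adjustment).

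An interaction term, with the mouse as a block, compared the exposure difference of one class with that of the other and called 8 of 6843 genes (0.117%), none of them a member. For Txnip the interaction was 0.62 on the log2 scale (SE 0.22, edgeR adjusted p = 0.622), and for Nlrp3 it was −0.77 (SE 0.40, adjusted p = 0.935). With another thinning seed both were near 0, at 0.0445 and −0.0303, and with a mouse left out they ran from 0.42 (without PBS 2) to 0.95 (without PBS 3) for Txnip and from −0.92 (without PBS 2) to −0.38 (without DEP 11) for Nlrp3. The other 7 members tested had adjusted p from 0.968 to 0.9993.

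**Figure D5:**
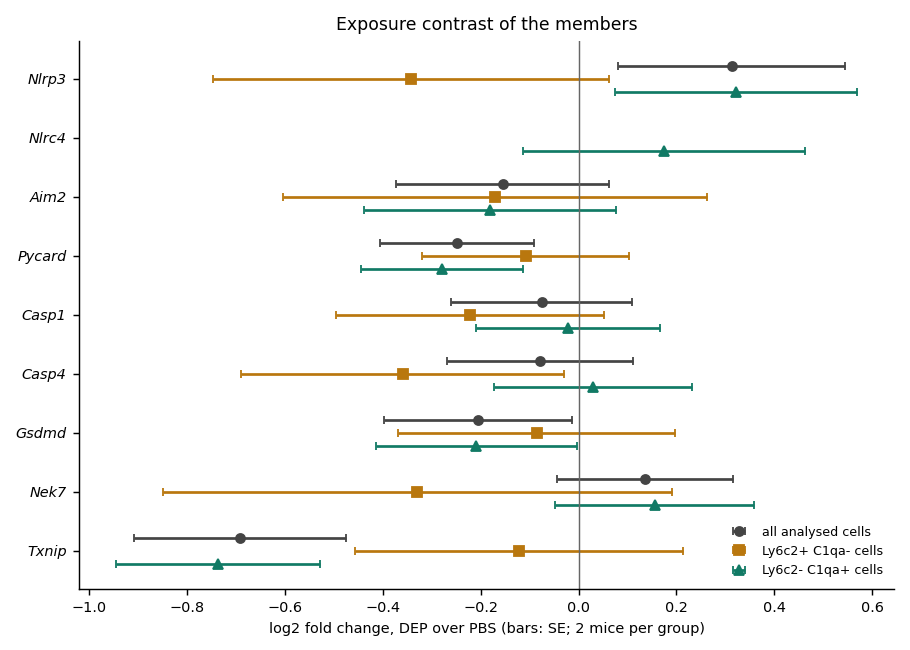
Log2 fold change of DEP over PBS mice (points) with its SE (bars, 2 mice per group) for the members tested in all analysed cells, Ly6c2+ C1qa- cells and Ly6c2- C1qa+ cells. Txnip was at −0.69 in all cells and −0.74 in Ly6c2- C1qa+ cells, and no point passed the correction.

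Among the other pathway genes, none passed in any exposure comparison. In all analysed cells the smallest p-values belonged to Il1r2 (0.41, SE 0.18) and Gbp7 (0.35, SE 0.17) on the positive side and to Irf1 (−0.40, SE 0.18) and Ninj1, which ruptures the membrane of dying cells (−0.31, SE 0.16), on the negative side, each at an adjusted p of 0.9998. In Ly6c2- C1qa+ cells these were Il1r2 (0.41) and Gbp7 (0.37), and Irf1 (−0.50) and Il1rn (−0.43). In Ly6c2+ C1qa- cells Il1rn, the interleukin-1 receptor antagonist, had 37.6, 37.8, 98.0 and 86.0 CPM in DEP 11, DEP 13, PBS 2 and PBS 3 (−1.30, SE 0.32, edgeR adjusted p = 0.9993). Ninj1 (−0.34) followed it on the negative side, and Naip6 (0.90) and Serpinb1a (0.51) had the smallest p-values on the positive side. Il1b, with 3578, 2698, 3591 and 2290 CPM over all analysed cells, differed by 0.10 (SE 0.20).

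For each member the 2 genes of most like pattern over the 16 sums of 4 mice and 4 classes, by Pearson's r of log2(CPM + 1) among tested genes of at least 10 CPM on average, are given as a description, since the sums share mice and differ in depth. They were Ncf1 (r = 0.837) and Arrdc1 (r = 0.825) for Nlrp3, 4921524J17Rik (r = 0.914) and Stn1 (r = 0.895) for Casp1, Gadd45a (r = 0.811) and Ubp1 (r = 0.777) for Casp4, and Cox5b (r = 0.910) and Eif6 (r = 0.897) for Gsdmd. For Pycard they were Arf4 (r = 0.835) and Nemf (r = 0.804), for Aim2 AW011738 (r = 0.846) and Guca1a (r = 0.833), and for Nek7 Phc2 (r = 0.797) and Cnot8 (r = 0.780). For Nlrc4 (Osbpl8, r = 0.952 and Brox, r = 0.932) and Nlrp1b (Aimp2, r = 0.922 and Tsc22d1, r = 0.890) the pattern rested on sums of few UMIs, some at 0.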

How the data were processed

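Single-cell 3' libraries (10x Genomics, v2 chemistry) of cells sorted from the colon lamina propria of 4 mice were analysed. The authors made UMI counts per gene and barcode with Cell Ranger on mm10 and deposited them as 1 matrix of raw counts, with STAR 2.6.1a and R 3.5.1 also named in the submitters' processing notes. No column of comparisons was used, and no column was left unmatched to a mouse. Gene symbols came from GENCODE (28416 of 28692 identifiers), and promoters from RefSeq on GRCm38.p6.

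Barcodes were kept with at least 1000 UMIs, at least 2.5 for the log10 of genes detected, and mitochondrial UMIs over 0 but no more than 7%. They were clustered (scran 1.30.0, scater 1.30.1, 500 variable genes, 34 components, 10 clusters), and the cluster led by plasma cell markers was left out. Doublets were not called. UMIs were summed per mouse, or per mouse and class, and tested with edgeR 4.0.16 (limma 3.58.1, R 4.3.3) by the two-sided quasi-likelihood test with TMM scaling and Benjamini-Hochberg adjustment at 5% over all genes tested, which had over 1 CPM in at least 2 sums and a UMI in at least 5% of cells. The class contrast and interaction carried the mouse as a block, and the spread of the class contrast was estimated over 16 sums. DESeq2 1.42.0, RLE scaling, no filter, other UMI minimums, other class borders, another thinning seed, and each mouse left out were alternatives. Leaving out the T and B cells, found by dividing the tree into 30 clusters, was chosen after seeing the data. The edgeR fits were also run on simulated counts with known changes. These were drawn with a fixed spread and no mouse effect, so they did not cover the spread between mice.

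Levels are CPM of a sum, and limits for a count of 0 are 3 counts of the total and cover counting error only. Libraries are separate mice, so the spread between them holds animal, cell preparation and library together. The members and gene lists were chosen with earlier results of these data known. Named besides the members are the pathway genes of smallest p (5 per direction called between classes, 2 per direction between DEP and PBS mice) and 2 genes of like pattern per member. Naip2, Il18bp, Gbp2, Gbp3, Pstpip1 and Il1b, the fixed sort genes and the clusters' genes were named after their values were seen.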

Additional observations from a re-analysis of the deposited data

Results flagged for a closer look

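The 1614 barcodes with fewer than 500 UMIs, which no comparison used, held 5 members at a higher level (CPM) than the analysed cells of any of the 4 mice. Over these barcodes together Nlrp3 was at 63.6 CPM (30 UMIs), Aim2 at 46.6 (22), Casp4 at 84.8 (40), Nlrp1b at 31.8 (15) and Nlrc4 at 21.2 (10). The other 5 members did not stand above every mouse there, with Casp1 at 40.3 CPM and Gsdmd at 72.1 CPM. The barcodes had a median of 287.5 UMIs, and what they are was not tested.

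Txnip differed between Ly6c2+ C1qa- and Ly6c2- C1qa+ cells in opposite directions in the DEP mice and the PBS mice by sign, with log2 ratios of 0.014 (DEP 11), 0.24 (DEP 13), −0.86 (PBS 2) and −0.33 (PBS 3). In DEP 11 the classes were nearly level, so the DEP direction rests on DEP 13. The test of that difference gave a log2 interaction of 0.62 (edgeR adjusted p = 0.622), which did not pass the correction. With another thinning seed the interaction was 0.0445, so the value depends on which cells near the class border are counted in.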

How the results depend on the processing

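Both classes of the class contrast come from the same mouse, so the mouse was the block. Without the replicate block it called 1416 genes against 2023, and the calls of Casp4 and Txnip were lost. The exposure comparisons shared no replicate numbers between DEP mice (11, 13) and PBS mice (2, 3). No paired analysis was possible because of this. Where a DEP or PBS mouse was left out, the lone mouse was assumed to vary like the others. Calls over all analysed cells went from 0 to 82 with no filter on low genes, 4 by DESeq2 and 6 to 75 with a mouse left out (6 without DEP 11, 16 without DEP 13, 27 without PBS 2, 75 without PBS 3). In Ly6c2+ C1qa- cells they went from 0 to 4 with no filter and 1 to 15 with a mouse left out (15 without PBS 2). In Ly6c2- C1qa+ cells they went from 0 to 77 with no filter, 6 by DESeq2, 1 with C1qa+ from 1 UMI and 0 to 30 with a mouse left out (30 without DEP 11). Interaction calls, 8 in the main analysis, were 14 with RLE scaling, 17 with no filter, 0 over all barcodes of at least 1000 UMIs, 18 from 2000 UMIs, 16 with C1qa+ from 1 UMI, 1 with another thinning seed and 9 to 28 with a mouse left out (28 without PBS 3). The class contrast called 1620 to 1855 genes with a mouse left out. The difference in the share of Ly6c2+ C1qa- cells was 0.180 points from 2000 UMIs, 1.94 with classes from full-depth levels, 0.874 with C1qa+ from 1 UMI, 0.717 with another seed, and −1.85 to 1.66 with a mouse left out (1.66 without DEP 13).

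No member turned direction in the class contrast, where of 112 alternative values 88 stayed on the same side of the threshold, 13 lost a call and 11 gained one. Exposure differences that turned direction were, in Ly6c2+ C1qa- cells, Nlrp3 0.39 and Aim2 0.17 with another seed, Gsdmd 0.0599 with C1qa+ from 1 UMI, and Nek7 0.34 and Txnip 0.00396 with full-depth classes, and in Ly6c2- C1qa+ cells Nlrc4 −0.0718 with another seed. Interactions that turned were Aim2 −0.0996, Nlrc4 0.14 and Gsdmd −0.00857 over all barcodes, Aim2 −0.0540 and Gsdmd −0.0246 from 2000 UMIs, Aim2 −0.13 and Nek7 0.14 with full-depth classes, Aim2 −0.99 and Pycard −0.0178 with C1qa+ from 1 UMI, and Casp1 0.0350 with another seed. With a mouse left out the log2 fold changes that turned ranged, over all cells, Aim2 −0.34 to 0.0401, Casp1 −0.28 to 0.11, Casp4 −0.26 to 0.0991 and Gsdmd −0.48 to 0.00296, in Ly6c2+ C1qa- cells Aim2 −0.37 to 0.0862, Gsdmd −0.17 to 0.0227, Nek7 −0.71 to 0.26 and Txnip −0.56 to 0.45, in Ly6c2- C1qa+ cells Nlrp3 −0.00649 to 0.63, Nlrc4 −0.0307 to 0.40, Aim2 −0.44 to 0.10, Casp1 −0.22 to 0.17, Casp4 −0.11 to 0.19 and Gsdmd −0.51 to 0.0125, and for the interaction Nlrc4 −7.45 to 0.20, Aim2 −0.42 to 0.56, Pycard −0.0241 to 0.37, Gsdmd −0.23 to 0.33 and Nek7 −0.98 to 0.15. The lowest Nlrc4 value sets a count of 0 against others and depends on the prior count. The cause of these changes was not tested. Low counts limit Nlrp1b and Nlrc4, and 2 mice in each group limit every exposure comparison.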

Other observations

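Outside the Ly6c2 and C1qa comparison, cells with 2 or more thinned Ly6c2 UMIs (15 to 65 per mouse) had Casp1 at 83.5, 134, 86.3 and 77.2 CPM and Casp4 at 47.2, 119.5, 58.5 and 40.6 CPM in DEP 11, DEP 13, PBS 2 and PBS 3. Pycard was at 388, 299, 367 and 349 CPM in the same cells. The 58 T and B cells had Txnip at 95.3, 298, 238 and 162 CPM and Nlrp3 at 0, 0, 59.5 and 0 CPM, from 2 Nlrp3 UMIs in all.

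Cluster 8 (390 cells), led by Ccl5, Ltb and Cd209a, had Aim2 at 14.7, 18.5, 25.3 and 36.4 CPM and Casp1 at 78.3, 69.2, 88.5 and 71.1 CPM. Cluster 1 (1029 cells), led by H2-M2, Zmynd15 and Mmp13, held 20.2 to 44.1 CPM of Nlrp3. The interaction term called C1qa, C1qb, Cxcl9, Selenop, Cd63, Ms4a7 and Pf4, lower in sign, and Fn1, higher in sign, 8 in all in the main analysis. The number of calls depended strongly on the settings, as given above. C1qa also set the classes.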
